A study of Drosophila melanogaster with 2 samples.

Results

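The regions described here were the weaker candidate binding sites of Clock (Clk) that were seen in both replicates of a chromatin immunoprecipitation sequencing (ChIP-seq) experiment on whole adult male Drosophila melanogaster. They were chosen by measured values. The authors pooled both replicates, called 30000 candidate regions on build dm6, and kept 2464 of them as reproducible peaks by their irreproducible discovery rate (IDR) step. A region counted here when it was among the other 27536 pooled candidates and when the candidate list of replicate 1 and that of replicate 2 each had a summit, the position of highest signal, within 50 bp of its own. There were 4215 such regions, 15.3% of the weaker candidates. The remaining 23321 weaker candidates are called the other weaker candidates below. Of these, 10568 had a summit in replicate 1 alone, 5915 in replicate 2 alone and 6838 in neither.

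The 2 samples were biological replicates 1 and 2 of 1 group, male adults of a transgenic line that stably expressed Clk with green fluorescent protein (GFP) fused at the C-terminus, sheared by sonication. The labels give the age as unknown, and they name neither the promoter of the transgene nor the time of day of collection. The description names an anti-GFP antibody, while the antibody field names Clk. Both samples carried the transgene, so each result describes 1 transgenic line, and the whole body mixes clock cells with all other cells.

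Clk belongs to the basic helix-loop-helix PAS family and binds the E-box CACGTG as a pair with Cycle (cyc). The pair drives transcription of per, tim, vri, Pdp1 and cwo, and the proteins of these genes then repress or raise Clk activity or Clk transcription, which closes the circadian loop. Whole-body ChIP-seq lists also hold many promoters of broadly expressed genes, where the DNA replication-related element (DRE) is a common sequence of the core promoter, bound by DREF and by the insulator protein BEAF-32.

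The sequences that the motif results below turn on are shown as the 61 bases centred on each summit, from the RefSeq Release 6 assembly (dm6), plus strand, 5′ to 3′. They are examples, picked after the values were seen for their signal or for the role of the gene, and stronger regions with the same motifs exist. The first set had the E-box CACGTG, in capitals. The summit at Cnb, which encodes the centriole protein Centrobin, lay 20 bp upstream of the start site. The summit at circadian trip (ctrip), a ubiquitin ligase that acts on Clk protein, lay 495 bp upstream of a start site. The summit in cwo, an E-box-binding repressor of the loop, was in an intron. The summit at bys, a ribosome assembly factor, lay 29 bp upstream of its start site, and that at REPTOR, a transcription factor downstream of TORC1, was in an intron.
Cnb, chr3L:1947705-1947765: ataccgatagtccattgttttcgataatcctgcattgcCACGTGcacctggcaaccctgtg
ctrip, chr3R:4803307-4803367: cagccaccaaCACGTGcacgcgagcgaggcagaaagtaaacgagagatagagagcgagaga
cwo, chr3R:10393352-10393412: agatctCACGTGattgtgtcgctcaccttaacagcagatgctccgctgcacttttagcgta
bys, chrX:7901821-7901881: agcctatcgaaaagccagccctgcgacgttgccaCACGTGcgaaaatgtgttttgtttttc
REPTOR, chr3R:24570179-24570239: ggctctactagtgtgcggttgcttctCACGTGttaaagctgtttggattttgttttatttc

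The second set had the DRE, searched as TATCGATA and shown in capitals. All 4 summits lay upstream of a start site, by 91 bp at CG9992, 52 bp at rngo (an aspartic protease of the Ddi1 family), 223 bp at Tpc1 (a mitochondrial thiamine pyrophosphate carrier) and 46 bp at Rbcn-3A (a regulator of the vacuolar proton pump).
CG9992, chrX:16384969-16385029: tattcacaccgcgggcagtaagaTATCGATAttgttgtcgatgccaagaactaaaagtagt
rngo, chrX:16441471-16441531: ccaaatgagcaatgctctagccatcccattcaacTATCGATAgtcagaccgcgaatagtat
Tpc1, chr3R:10882381-10882441: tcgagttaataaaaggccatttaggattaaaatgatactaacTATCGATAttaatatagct
Rbcn-3A, chrX:6255503-6255563: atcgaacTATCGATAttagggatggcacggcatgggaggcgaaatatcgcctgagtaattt

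The third set had 1 of the other motifs that were more frequent at the summits than beside them. Capitals mark CAGCTG, an E-box variant read by many helix-loop-helix pairs, at taiman (tai), a PAS-domain coactivator of the ecdysone receptor, and at ATPsynCF6, a subunit of ATP synthase. Capitals mark the forkhead core TGTTTAC at Pkc98E, a protein kinase C, and its reverse complement GTAAACA at daughterless (da), the common partner of helix-loop-helix proteins.
tai, chr2L:9166745-9166805: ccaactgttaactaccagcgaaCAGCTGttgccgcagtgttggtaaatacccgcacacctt
ATPsynCF6, chr3R:23356136-23356196: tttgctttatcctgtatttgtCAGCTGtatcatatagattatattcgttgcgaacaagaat
Pkc98E, chr3R:29039852-29039912: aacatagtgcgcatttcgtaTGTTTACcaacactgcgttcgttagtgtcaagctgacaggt
da, chr2L:10388000-10388060: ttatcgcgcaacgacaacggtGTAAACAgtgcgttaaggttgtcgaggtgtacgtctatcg

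The authors' signal value of each region, on a scale set by each library, served here as a description and for ranking inside one list, and read depth is unknown. In whole bodies, a factor bound in few cells and weak binding in many cannot be told apart. The weakest reproducible peak had rank 2464 and a pooled signal of 72.4, and the strongest region of the set had rank 2468 and a signal of 72.2. Pooled signals of the set ran from 18.3 to 72.2 with a median of 38.9. Because matching to both replicates follows the pooled signal, this median has no test. It was 23.1 for the other weaker candidates and 109 for the reproducible peaks. The deposited −log10 q-values of the set ran from 0.0683 to 3.02, with a median of 0.990. At the distance limit, 57 regions had a larger summit distance of 50 bp and 68 candidates outside the set had one of 51 bp.

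In replicate 1 the regions had signals between 12.2 and 80 with a median of 21.5, and in replicate 2 between 8.26 and 60.9 with a median of 14.4. The median ratio of replicate 1 over replicate 2 was 1.49. Ranks were alike, with a median of 9905 in replicate 1 and 10152 in replicate 2, and both reached almost to the end of the 30000 candidates. Most of the regions were therefore strong in neither replicate. Only 99 stood among the strongest 2464 of replicate 1, 180 among those of replicate 2, and 3 among both. Among the strongest 10000 of both stood 1316, or 31.2%. Across the regions the log2 signals of the replicates had a Pearson correlation of 0.301 and a Spearman correlation of 0.312, over regions that are not independent and whose range the choice limits. Across the 1713 reproducible peaks with a summit in both replicates these were 0.785 and 0.694. The median summit distance was 6 bp to replicate 1 and 14 bp to replicate 2, and no pair of the regions shared a replicate summit.

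**Figure D1:**
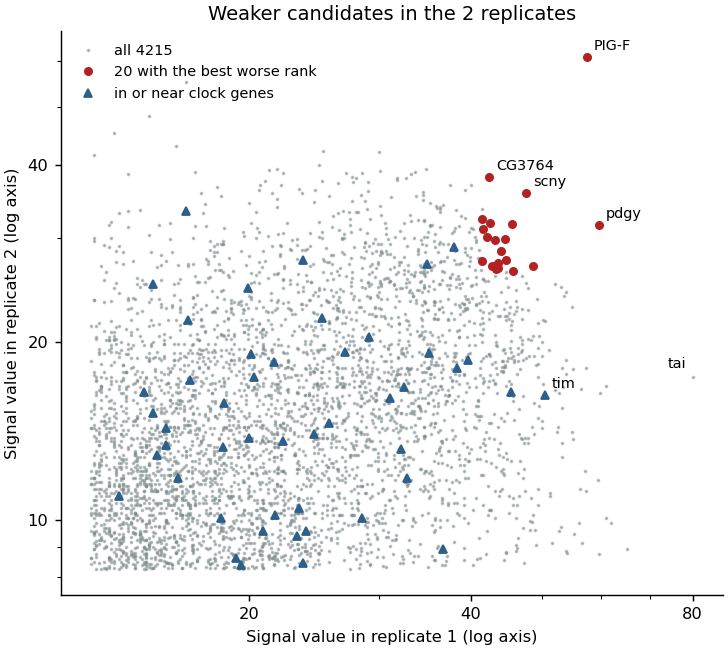
Signal value of each of the 4215 regions in replicate 1 (horizontal, log axis) and replicate 2 (vertical, log axis). Gray points are all regions, red points the 20 whose worse replicate rank was best and blue triangles those in or within 1 kb of clock genes; the cloud is broad, with PIG-F at the upper right corner and tai high in replicate 1 alone.

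The 3 regions that were among the strongest 2464 of both replicates were at promoters and lay about 200 bp from a stronger, reproducible summit. The region at PIG-F, which encodes a subunit for GPI anchor synthesis, had a signal of 57.5 in replicate 1 and 60.9 in replicate 2, with ranks 1783 and 567, and lay 206 bp from a reproducible summit. The region at pudgy (pdgy), an acyl-CoA synthetase, had 59.7 in replicate 1 and 31.6 in replicate 2, and lay 200 bp from one. The region at scrawny (scny), a histone deubiquitinase, had 43.3 in the pooled list, 47.5 in replicate 1 and 35.8 in replicate 2, and lay 205 bp from one. These 3 were strong in both replicates and sat close beside a called peak.

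The other 17 of the 20 regions with the best worse rank were not among the strongest 2464 of both replicates. Their worse ranks ran up to 3028, and 14 of all 20 were at promoters, defined as a summit within 500 bp of an annotated start site. Of all 20, 6 lay within 1 kb of a reproducible summit. These were the 3 above and those at SCaMC (827 bp), CG4619 (673 bp) and CG3764 (741 bp). The region in HDAC4, a class IIa histone deacetylase, lay in an intron with signals of 43.2 in replicate 1 and 29.8 in replicate 2, and was 60719 bp from the nearest reproducible summit. The region 288 bp upstream of 18-wheeler (18w), a Toll-family receptor, had 42.7 in replicate 1 and 26.9 in replicate 2 and was 134196 bp from one. The region at jitterbug (jbug), a filamin, had 43.5 and 26.7 in replicates 1 and 2 and was 50804 bp from one. These 3 stood far from any stronger peak, with pooled signals of 69.8 at HDAC4, 69.6 at 18w and 70.9 at jbug, just under the 72.4 of the weakest reproducible peak. Arf1, a small GTPase of Golgi transport, had 43.6 and 27.3 in replicates 1 and 2, 133 bp upstream of its start. hyrax (hyx), a subunit of the Paf1 complex, had 43.3 and 26.6 in replicates 1 and 2, and Sas-4, a centriole assembly protein, had 41.5 and 31.1. Introns of jing (nearest start CG15233) and schnurri (shn), both zinc finger factors, and of CG3764 held others. The rest were nearest to CG12104, CG4199, CG7920, SCaMC (a mitochondrial carrier), CG4619, Asph (an aspartyl hydroxylase), lncRNA:CR44588 and mthl5 (a methuselah-like receptor).

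Matching to both replicates fell steeply with pooled rank. Of the candidates ranked 2501 to 5000, 51.5% were in the set, of those ranked 5001 to 7500, 40.8%, and of those ranked 10001 to 12500, 20.9%. Beyond rank 22500 the share was 0.520% or less in each class of 2500. These shares are part of how the regions were chosen. Set directly against each other, 63.1% of the strongest 2464 candidates of replicate 1 had a replicate 2 summit within 50 bp, against 7.66% of those ranked 25001 to 30000. From replicate 2 the values were 62.5% and 8.50%. For scale, 2.26% of the positions of the chromosome arms lay within 50 bp of a candidate summit, for each replicate list taken alone. Among weaker pooled candidates, a match in one replicate went with fewer matches in the other, since 28.5% of those with a replicate 1 summit and 46.4% of those without one had a replicate 2 summit. The pooled list was made from the replicates, so neither match is independent of it.

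**Figure D2:**
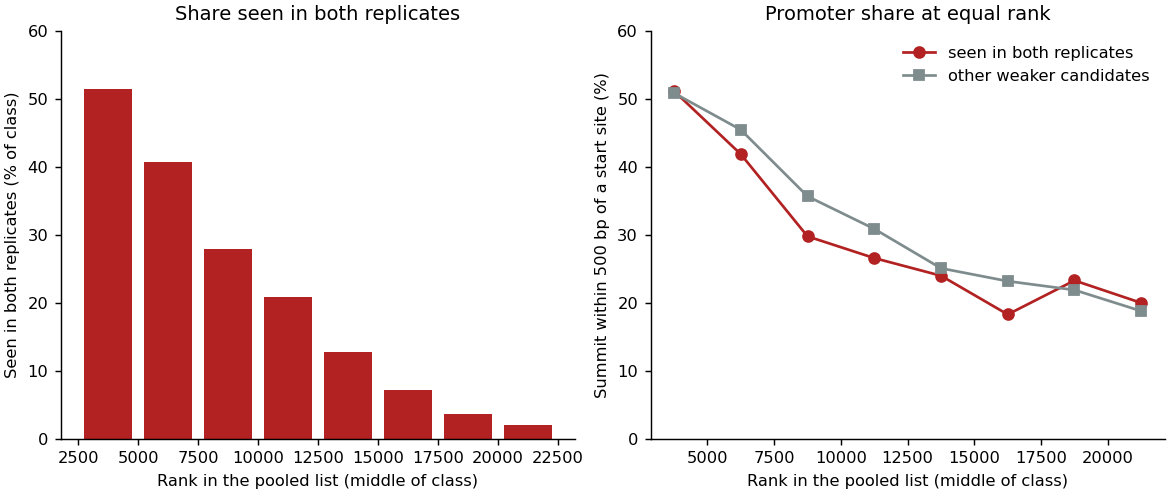
Left, share of weaker candidates seen in both replicates by class of 2500 pooled ranks; right, share of summits within 500 bp of a start site for regions seen in both replicates (red circles) and other weaker candidates (gray squares) of the same rank class. Classes with at least 50 regions are shown, from rank 2501 to 22500; the share seen in both fell from class to class, and the promoter share of both kinds was near 51% in the first class and near 20% in the last.

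Promoters held 1593 of the regions, or 37.8% (95% exact binomial interval 36.3 to 39.3%, counting error over regions only). This was above the 25.7% of the other weaker candidates, by 12.1 percentage points (Newcombe interval 10.6 to 13.7), and below the 64.3% of the reproducible peaks, a difference of -26.5 points (interval -28.9 to -24.1). Annotation was not used to choose the regions, but pooled rank differs between the classes. At equal rank no excess over the other weaker candidates was left. Over 12 rank classes the Mantel-Haenszel odds ratio of lying at a promoter was 0.884 (interval 0.816 to 0.957), a log2 odds ratio of -0.18 (interval -0.29 to -0.06). Ranked 2501 to 5000, 51.2% of the regions and 50.9% of the other weaker candidates lay at promoters, and ranked 7501 to 10000, 29.8% and 35.7%. That small deficit at equal rank kept an interval below 0 under 7 of 11 alternatives, with log2 odds ratios between -0.22 and -0.10, and lost it under 4. It was 0.01 (interval -0.07 to 0.10) when a summit in replicate 2 alone was required, and -0.02 (interval -0.18 to 0.13) when the replicate lists were limited to their strongest 15000. It was -0.06 (interval -0.23 to 0.11) among the stronger candidates, split at the median signal of the set, and -0.10 (interval -0.21 to 0.00) at a summit distance of 150 bp.

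Within the set the promoter share followed the signal. In 5 groups of 843 regions from strongest to weakest it was 53.4%, 45.8%, 39.4%, 26.6% and 23.8%, while the share in coding exons went the other way, from 2.02% in the strongest group to 17.2% in the weakest. Outside promoters, 1591 regions (37.7%) lay in introns, 423 (10.0%) in coding exons, 392 (9.30%) between genes, 120 in 3′ UTRs, 58 in 5′ UTRs and 38 in noncoding exons. Coding exons held 17.2% of the other weaker candidates and 0.690% of the reproducible peaks, so the set stood between them. Intergenic DNA held 9.30% of the set, against 13.1% of the other weaker candidates and 5.07% of the reproducible peaks. At equal rank neither share was lower in the set than among the other weaker candidates. The odds ratio there was 1.04 (interval 0.924 to 1.17) for coding exons and 1.17 (interval 1.03 to 1.33) for intergenic DNA. Annotated transposable element insertions held 7 of the regions, or 0.166%, against 0.532% of the other weaker candidates and 0.0406% of the reproducible peaks. For these insertions no difference from other weaker candidates of equal rank was detected (odds ratio 0.479, interval 0.209 to 1.10).

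At promoters the summits leaned upstream of the start site. Of the 1593 promoter summits, 980 or 61.5% were upstream, with a median position of -43 bp. The share was 52.4% for the other weaker candidates, a difference of 9.08 points (Newcombe interval 6.36 to 11.8), and 80.5% for the reproducible peaks, a difference of -19.0 points (interval -22.0 to -15.9). Against other weaker candidates of equal rank the odds ratio was 1.09 (interval 0.963 to 1.24), so no difference was detected there. The nearest start belonged to a protein-coding gene for 1458 promoter regions, to a noncoding RNA for 108, to a tRNA for 16, to a snoRNA for 5, to a pseudogene for 4 and to an snRNA for 2.

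**Figure D3:**
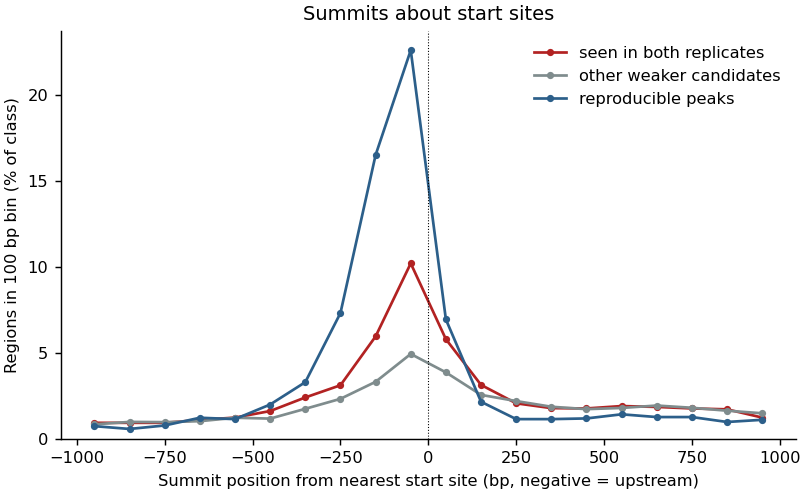
Share of each class of regions per 100 bp bin (vertical) by summit position from the nearest start site (horizontal, negative upstream), for regions seen in both replicates (red), other weaker candidates (gray) and reproducible peaks (blue). All 3 curves peak in the 100 bp upstream of the start site, with the red curve between the others.

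Some of the regions flanked a stronger peak. Within 1 kb of a reproducible summit lay 450, or 10.7% (interval 9.76 to 11.6%), against 5.76% of the other weaker candidates, a difference of 4.92 points (Newcombe interval 3.97 to 5.93). At equal rank the odds ratio was 0.980 (interval 0.864 to 1.11). None came closer than 199 bp, and 156 lay within 250 bp while 176 lay within 500 bp, so few lay between 250 and 500 bp. Which of these summits mark separate binding and which the flank of 1 broad peak was not tested. The other weaker candidates showed the same gap, with 404 within 250 bp and 460 within 500 bp of a reproducible summit. The median region of the set was 420 bp wide, and the part of this width in the spacing was not tested. Promoters held 52.7% of the 450 near regions, against 36.0% of the 3765 others. The median distance to a reproducible summit was 9039 bp. Within 10000 bp of one lay 51.8% of the set, against 42.5% of the other weaker candidates. At equal rank the odds ratio for that distance was 0.862 (interval 0.799 to 0.929).

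On the large arms the regions were spread evenly, except for the X. Arms 2L, 2R, 3L and 3R held 32.4 to 35.9 per Mb and the X, of which a male has a single copy, held 22.0 per Mb. The X held 12.3% of the set, against 11.4% of the other weaker candidates (difference 0.843 points, Newcombe interval -0.2 to 1.94) and 12.9% of the reproducible peaks (difference -0.640 points, interval -2.32 to 0.989). On every arm, including chromosome 4 with only 15 of the regions, the promoter share was higher in the set than among the other weaker candidates. On the X these shares were 44.3% and 31.0%. The shares by arm were not matched for pooled rank, and over all arms no excess was left at equal rank (odds ratio 0.884).

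Over the genome, 2262 of 13968 protein-coding genes, or 16.2%, had one of the regions within 1 kb of a start site, nearly as many as the 2248 (16.1%) with a reproducible summit. They were mostly other genes, since 1738 (76.8%) had no reproducible summit there. Among genes with a reproducible summit 23.3% also had one of the regions, and among the 11720 without one 14.8% did. Genes that share a promoter can be counted with the same region, and a region named under a list can be nearest to the start of another gene. Each list below is read against the 16.2%, with no test of the list, and small lists vary widely around it by counting alone.

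Each of the 6 genes of the core loop held at least 1 of the regions within its body or 1 kb beside it, 15 in all, of which 2 were at promoters. By that wider count 25.5% of all protein-coding genes had one. Among those at least as long as the shortest core loop gene (per, 7.20 kb) 50.5% did, and the median core loop gene was 13.3 kb long. The promoter region of tim, a repressor that partners Per, had signals of 50.4 in replicate 1 and 16.3 in replicate 2, 26 bp from a start site and 210 bp from a reproducible summit. It ranked 2520 in the pooled list, just below the reproducible peaks. The promoter region of Pdp1, an activator of Clk, had 38.3 in replicate 1 and 18.1 in replicate 2, and 6 more lay elsewhere in Pdp1. In cwo, introns held a region with 34.9 in replicate 1 and 27.1 in replicate 2, and the E-box region shown above with 20.1 and 19.1. The start sites of cwo had no reproducible summit within 1 kb, and the nearer of these 2 regions was 2004 bp from a start site. The 2 regions lay 853 bp and 2267 bp from a reproducible summit. The region at per was in a coding exon, 7796 bp from a per start site and 510 bp from that of the neighbor dyw, with 20 in replicate 1 and 13.8 in replicate 2. The intron region of vri, a repressor of Clk, had 19.5 and 8.38 in replicates 1 and 2. The region in Clk itself had 21.6 in replicate 1 and 18.5 in replicate 2, 1099 bp from a start site. The flies carry extra Clk sequence in the transgene, and its part in that signal was not tested.

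Among 18 regulators of the loop, 13 held 32 of the regions in the gene or within 1 kb of it, 11 of them at promoters, against the same 25.5% over all genes. These genes ran from 1.58 to 75.1 kb, with a median of 8.96 kb. Of all protein-coding genes of at least 7.20 kb, 50.5% had one of the regions by this count. The region 350 bp from the start of cyc, the partner of Clk, had signals of 45.3 in replicate 1 and 16.5 in replicate 2, and no reproducible summit lay within 2510 bp. The promoter region of nemo (nmo), a kinase that phosphorylates Per and Clk, had 38.0 in replicate 1 and 29.0 in replicate 2, at pooled rank 2524. The promoter region of kayak (kay), the fly Fos, had 23.7 in replicate 1 and 27.6 in replicate 2, higher in replicate 2. Atx2 and tyf, which promote per translation together, had promoter regions of 32.5 and 16.8 at Atx2 and of 36.7 and 8.93 at tyf, in replicates 1 and 2. CkIIbeta, the regulatory subunit of a kinase of Per and Tim, had 25.1 and 22.0 in replicates 1 and 2, 3 bp from its start. The E-box promoter region of ctrip had 29.1 in replicate 1 and 20.4 in replicate 2. Thus cyc, nmo, kay, Atx2, tyf, CkIIbeta and Usp8, a deubiquitinase, were the 7 regulators that had one of the regions, but no reproducible peak, within 1 kb of a start site. They were 7 of the 11 regulators with no reproducible peak there. Over all 11720 protein-coding genes with none there the share was 14.8%, not matched for gene length or number of start sites.

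The other regulators either had a reproducible summit near a start site or had none of the regions there. shaggy (sgg), the glycogen synthase kinase that phosphorylates Tim, held 5, the strongest with 39.6 in replicate 1 and 18.7 in replicate 2, at 11275 bp from a reproducible summit. twins (tws), a regulatory subunit of protein phosphatase 2A, held 5, with pooled signals between 29.1 and 48.2. widerborst (wdb), another such subunit, held 3 in introns, and mts, the catalytic subunit, held 1. The region at cry, the blue-light receptor, was in a coding exon with 35.1 in replicate 1 and 19.2 in replicate 2. None was found in the kinase genes dco and CkIIalpha, the F-box genes slmb and jet, or Pdfr, the receptor of the clock neuropeptide. The median pooled signal was 41.5 for the core loop regions and 41.2 for the regulator regions, against 38.9 over the whole set.

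**Figure D4:**
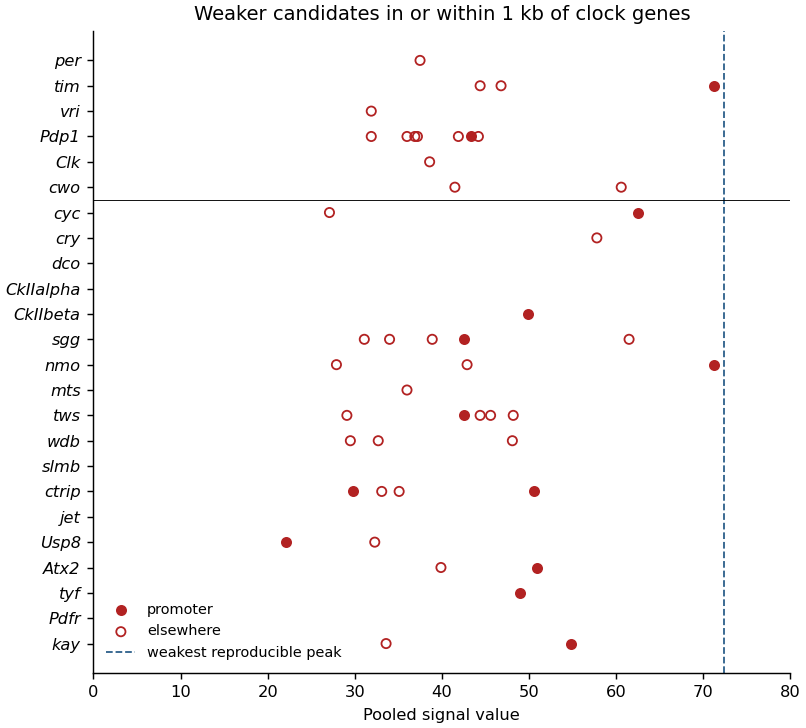
Pooled signal value (horizontal) of each of the regions in or within 1 kb of 6 core loop genes (above the line) and 18 regulators (below it). Filled points are promoter summits, open points other positions, and the dashed line is the weakest reproducible peak at 72.4; the promoter points of tim and nmo sit just left of that line.

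Of the core loop 2 of 6 genes (tim and Pdp1) and of the regulators 10 of 18 had a region near a start site, against 5 and 7 with a reproducible summit. Of 13 genes of clock output and related regulators 6 did, and 5 had a reproducible summit. The region at taranis (tara), a cell cycle regulator needed for sleep, had 55.1 in replicate 1 and 13.7 in replicate 2 and lay 203 bp from a reproducible summit. Lk6, a kinase of the translation factor eIF4E, had 45.4 in replicate 1 and 20.1 in replicate 2, and the muscle and neuron factor Mef2 had 30.5 and 25.6. These lay 1465 bp (Lk6) and 200 bp (Mef2) from a reproducible summit. Of 12 bHLH-PAS and Myc network genes 6 had one of the regions and 3 a reproducible summit. The region at tai had the highest replicate 1 signal of the whole set, 80, but 17.5 in replicate 2, at 199 bp from a reproducible summit. Max, the partner of Myc, had 36.4 in replicate 1 and 27.5 in replicate 2, and Mondo, a sugar-sensing factor, had 18.7 and 26. These regions lay 166541 bp (Max) and 60453 bp (Mondo) from a reproducible summit. The Max region was nearest to the start of CG42374 and the Mondo region to that of crc.

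Hormone and nutrient signaling genes were also among them. Of 20 insulin and TOR pathway genes 8 had one of the regions and 7 a reproducible summit. Pi3K92E, the catalytic subunit of PI3-kinase, had 36.2 in replicate 1 and 29.4 in replicate 2, without a reproducible summit within 1 kb. Thor, the translation repressor of the 4E-BP family, had 37.2 in replicate 1 and 10.6 in replicate 2, at 280 bp from a reproducible summit. Of 13 ecdysone and hormone genes 4 had one, among them the ecdysone receptor EcR with 47.9 and 24.7 in replicates 1 and 2, the juvenile hormone target Kr-h1 with 32.5 and 26.5, and the nuclear receptor Hr39 with 27.5 and 24.2. Of 18 heat shock genes 6 had one and 8 had a reproducible summit, with DnaJ-1 at 36.7 and 22.5, Hsc70-4 at 25.9 and 15.5 and Hsp68 at 31.2 and 21.3 in replicates 1 and 2. These regions lay 203 bp (DnaJ-1), 1115 bp (Hsc70-4) and 1320 bp (Hsp68) from a reproducible summit.

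Several housekeeping lists were richer in reproducible peaks than in the weaker regions. Of 88 ribosomal protein genes 22 had one of the regions and 51 a reproducible summit, and of 14 insulator and promoter factor genes 3 and 8 did. RpS25 had 33.5 in replicate 1 and 30.1 in replicate 2, and RpL35A 45.1 and 22.4. The RpS25 region was nearest to the start of CG4820 and lay 200 bp from a reproducible summit. The insulator gene su(Hw) had 38.8 in replicate 1 and 32.8 in replicate 2, Trl, the GAGA factor, 24.1 and 16.4, and mod(mdg4) 19.4 and 8.48. The su(Hw) region was nearest to the start of Polr2I. Of 73 mitochondrial ribosomal protein genes 15 had one of the regions and 22 a reproducible summit, and none had both. Over all protein-coding genes with a reproducible summit, 23.3% also had one of the regions. Among the 22 cytosolic genes with one, 17 lacked a reproducible summit, near the 76.8% over all genes with one. mRpL44 had 47.0 and 21.9, mRpL4 23.3 and 26.1, and mRpL17 45.3 and 18.8 in replicates 1 and 2. The mRpL44 region was nearest to the start of Snr1 and the mRpL17 region to that of Tudor-SN. Of 48 proteasome genes 3 had one (Prosbeta1, Rpt1 and Rpn3) and 8 a reproducible summit, and of 31 Rab GTPase genes of vesicle transport 9 and 10 did. The Rpn3 region lay 203 bp from a reproducible summit. Rab30 had 25.2 in replicate 1 and 42.2 in replicate 2, Rab7 40.4 and 21.6, and Rab23 43.7 and 11.0. The Rab30 region was nearest to the start of Caper and the Rab23 region to that of plx.

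Several lists of genes with narrow expression had few or none. None of 18 neuropeptide genes and none of 19 testis genes had one of the regions or a reproducible summit near a start site. Of 179 chemosensory receptor genes 3 had one (Or88a, Or67d and Or49b), and of 70 Cpr cuticle genes 3 (Cpr47Eg, Cpr73D and Cpr72Ec), which had no reproducible summit. Or88a had 30.6 in replicate 1 and 22.0 in replicate 2, and the others had pooled signals between 26.6 and 39.3. The Or88a region was nearest to the start of CG12402. For phototransduction and muscle genes the share with one of the regions was near the 16.2% over all genes. Of 20 phototransduction genes 3 (15%) had one of the regions and 6 (30%) a reproducible summit, the 3 being Galphaq (the G protein of the cascade) with 28.4 and 27.9, the blue rhodopsin Rh5 with 39.8 and 16.8 and the phospholipase norpA with 12.9 and 15.9 in replicates 1 and 2. The Rh5 region lay 203 bp from a reproducible summit, and the Galphaq region was nearest to the start of CG45086. Of 16 muscle genes 2 (12.5%) had one and 2 a reproducible summit, with the regions at Mef2 and the tropomyosin Tm1, with 25.5 and 14.5 at Tm1.

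The E-box of Clk and Cycle was no more frequent at these summits than beside them. In windows that reached 50 bp left and right of the summit, read on both strands, 52 of 4215 regions or 1.23% (interval 0.923 to 1.61%) held CACGTG. Equal windows centred 400 bp to the left and right held it in 1.23% and 1.30% of the same regions (exact McNemar test, two-sided, unadjusted p = 1.00 and 0.845). The difference from the left flank was 0 points (interval -0.465 to 0.465) and from the right flank -0.0712 points (interval -0.548 to 0.405). It stood in 1.52% of the other weaker candidates, 1.34% of the reproducible peaks and 1.80% of windows about all annotated start sites. Of the 52 summits 17 were at promoters. In the 5 groups of 843 regions from strongest to weakest, 5, 13, 13, 12 and 9 held it. These were 0.593%, 1.54%, 1.54%, 1.42% and 1.07%. With a summit in replicate 1 alone required, which takes in 14783 candidates, the share was 1.51%, higher than the right flank by 0.338 points (exact McNemar test, unadjusted p = 0.0132) but not detectably higher than the left flank (0.101 points, exact McNemar test, unadjusted p = 0.495). In that larger set CACGTG did not pass after adjustment over the 10 motifs tested. An E-box is a match of letters only and does not show Clk binding, and its absence from a window says nothing of the factor.

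Of a panel of 10 motifs, 3 were more frequent at the summits than in the flank that held them more often, by the exact McNemar test with Benjamini-Hochberg adjustment over the panel. The DRE, TATCGATA, stood in 1.38% of summit windows and 0.380% of that flank, a difference of 0.996 points (interval 0.603 to 1.39, adjusted exact p = 6.54e-06). Of its 58 summits 53 were at promoters, 3.33% of promoter summits (interval 2.5 to 4.33%) against 0.191% of the others (interval 0.0619 to 0.444%). It was found in 2.14% of the strongest 843 regions and 0.474% of the weakest 843. Of all start-site windows 3.76% held it, a value inside the interval for the promoter summits of the set. The E-box variant CAGCTG stood in 6.36% of summit windows and 4.32% of the flank, a difference of 2.04 points (interval 1.09 to 2.99, adjusted exact p = 1.58e-04), against 7.83% of start-site windows. The forkhead core TGTTTAC stood in 3.87% and 2.61%, a difference of 1.26 points (interval 0.507 to 2.01, adjusted exact p = 0.00415), against 3.08% of start-site windows. For CAGCTG and TGTTTAC the summit shares cover all regions, most of them not at promoters, so start-site windows are an unlike set. Among the reproducible peaks the shares were 2.23% for TATCGATA, 5.11% for CAGCTG and 4.75% for TGTTTAC.

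Set against the other weaker candidates of equal rank, TGTTTAC was more frequent in the set, with an odds ratio of 1.32 (interval 1.08 to 1.62), and CACGTG less frequent, with an odds ratio of 0.682 (interval 0.494 to 0.940). These intervals are not adjusted for the 10 motifs. For CAGCTG (odds ratio 1.09, interval 0.936 to 1.28) and TATCGATA (1.06, interval 0.748 to 1.49) no difference at equal rank was detected. The GAGA sequence GAGAGAG (2.85% of summits, 2.11% of the flank, adjusted p = 0.0875) and GGTCACAC, the motif of the promoter factor M1BP (0.807% and 0.451%, adjusted p = 0.107), missed the threshold of 0.05 by the exact McNemar test. Both passed when a summit in only 1 of the replicates was required, so that either replicate alone gave 5 motifs in place of 3. TTATGTAA, TGACTCA, CACACACA and AAAAAAAA also did not pass. Under alternatives some of these were lower at summits, TGACTCA and CACACACA in windows of 25 bp to either side, and AAAAAAAA in windows of 100 bp and when a summit in replicate 1 alone was required. Summit windows of the set had a GC content of 43.7%, against 42.1% and 41.8% in the left and right flanks, and its part in the motif counts was not tested.

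**Figure D5:**
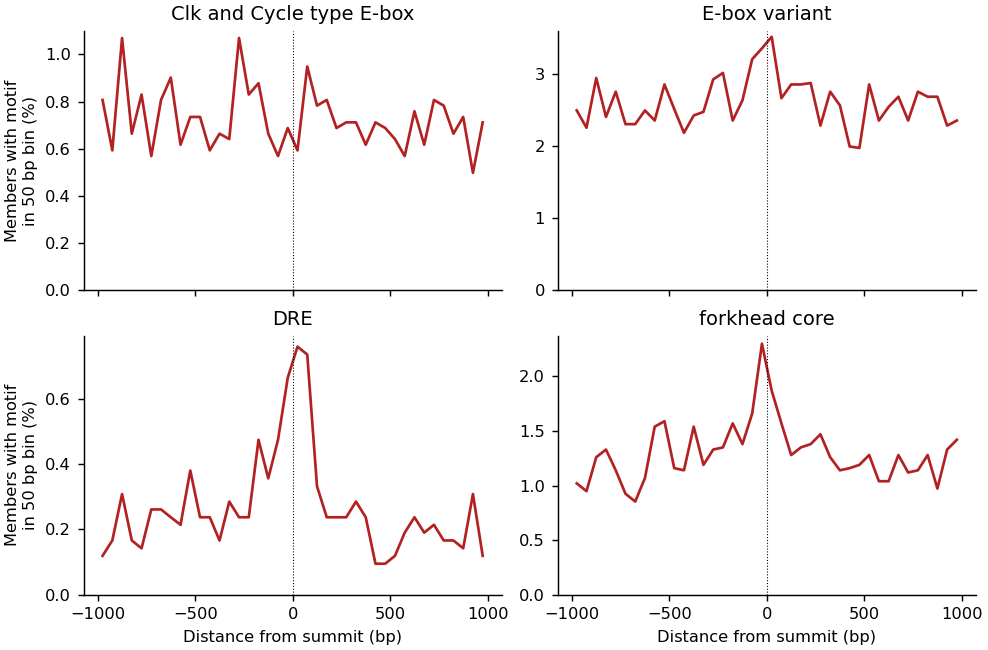
Share of the 4215 regions with a motif on either strand in each 50 bp bin (vertical, axes differ between panels) by distance from the summit (horizontal), for CACGTG (Clk and Cycle type E-box), CAGCTG (E-box variant), TATCGATA (DRE) and TGTTTAC (forkhead core). The DRE and forkhead panels peak at the summit, the E-box variant panel has a low peak there, and the CACGTG panel has none.

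Long genes held the largest numbers. The 2074 protein-coding genes with one of the regions inside had a median length of 8.15 kb, against 2.16 kb for all protein-coding genes, and across those genes the number rose with length (Spearman correlation 0.469, a description over genes). Tlk, the Tousled-like chromatin kinase, and scribbler (sbb), a transcriptional corepressor, held 12 each. SNF4Agamma, the gamma subunit of the energy sensor AMPK, CG46385 and CG5151 held 11 each. The ecdysone genes EcR and Eip75B, the factor gene Glut4EF and bunched (bun), a leucine zipper gene of the TSC22 family, held 10 each, and CG46467, which overlaps Glut4EF, held 9, as did shn. By length CG5151 was the densest of those named, with 4.09 per 10 kb, against 0.879 in Eip75B and 0.829 in Glut4EF. In Tlk 4 reproducible peaks lay beside the 12 regions, in CG46385 1 beside 11, and in Glut4EF 9 beside 10.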

How the data were processed

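ChIP-seq of whole adult males was analysed in 2 biological replicates of 1 group. The authors aligned reads to dm6 and dm3, compared them with a control alignment and called candidate regions per replicate and pooled, then the IDR list, per the file headers in the deposited notes. The sources used here name no aligner, peak caller, read filter or IDR threshold. The deposited signal value of a region is the authors' own score, on the scale of each library. The deposited −log10 q-value was read as such from the list format. Summits came from the deposited summit offset. No read counts were used, and depth is unknown. Each dm6 candidate list held 30000 regions, so weaker regions were not seen.

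Coordinates are 1-based on dm6, start sites are the 5′ ends of transcripts of Ensembl release 115 (BDGP6.54) without transposable elements, and sequence is RefSeq Release 6. Annotation followed an order of precedence with promoters first. Shares have exact binomial (Clopper-Pearson) intervals, differences Newcombe intervals for independent shares, and comparisons at equal rank a Mantel-Haenszel odds ratio over classes of 2500 pooled ranks. Neighboring regions are not independent, so intervals are too narrow to that extent. Motifs used the exact McNemar test, adjusted by Benjamini-Hochberg over 10 motifs at 0.05. Procedures were tested on simulated data. The regions and 18 gene lists were chosen with earlier results of these data known. Genes named were those nearest to the 20 regions whose worse replicate rank was best, every core loop and regulator gene, the 10 genes that held most regions and up to 3 genes of each other list with the best pooled rank; 2 genes that the rule names are not reported here. Sequences shown were picked by signal or gene role, after the values were seen, among regions with the motif in the 61 bases shown. Alternatives changed the summit distance, list length, start sites, windows, flanks and replicates. Tools were SciPy 1.17.1 and NumPy 2.4.6 under Python 3.11.15, with matplotlib 3.10.9 and pandas 2.3.3.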

Additional observations from a re-analysis of the deposited data

How the results depend on the processing

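Of 110 recomputed values, 75 kept their direction and their side of the threshold, or stayed close to the value reported. The number of regions, 4215, was 2495 at a summit distance of 25 bp, 6666 at 100 bp, 8281 at 150 bp, 2067 with the strongest 15000 of each replicate, 1316 with the strongest 10000, 9803 with an overlap of at least 50% of each region, and 10130 to 14783 when 1 replicate was left out. On dm3 it was 3931, or 20% of the weaker candidates there. The promoter share of 37.8% was 27.8% at 250 bp, 51.3% at 1000 bp, 35.1% for protein-coding transcripts, 36.0% for regions over 1 kb from a reproducible summit, 48.6% for the stronger regions by a split at the median signal, 46.4% with the strongest 15000, and 30.1 to 31.8% without 1 replicate. The difference from the other weaker candidates was -0.616 points (interval -3.57 to 2.34) among candidates of the stronger split. The log2 odds ratio at equal rank, -0.18, was -0.06 in the stronger split, -0.10 at 150 bp, -0.02 with the strongest 15000, and -0.10 to 0.01 without 1 replicate. The share within 1 kb of a reproducible summit, 10.7%, was 4.18% within 500 bp, 20% within 2 kb and 7.55 to 8.14% without 1 replicate. The E-box difference from the right flank ran from 0.128 to 0.338 points without 1 replicate. Motifs called higher were 5 in place of 3 with windows of 100 bp, with flanks at 800 bp, in the stronger split and without either replicate. Genes with one of the regions numbered 4155 to 5365 without 1 replicate, in place of 2262. Core loop genes with one numbered 4 in place of 2 by nearest start or without replicate 2. Leaving out a replicate drops its match, so more candidates qualify. The cause of the other changes was not tested. No paired analysis was possible because there was 1 group.

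Depth was unknown, replicates numbered 2, and no control or signal track was used here, so enrichment over input and copy number could not be checked.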

Other observations

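The 52 regions with CACGTG near the summit were spread over genes of many roles, 17 at promoters and 35 elsewhere, and 1 held more than 1 copy. By pooled rank the first after Cnb were in an intron of Usp15-31, a deubiquitinase, with 41.7 in replicate 1 and 24.3 in replicate 2, and between genes near chinmo, a transcription factor of neuron and germline identity, with 46.4 in replicate 1 and 12 in replicate 2. The next lay in an intron of the insulin receptor gene InR (nearest start lncRNA:CR44034), with 31.5 and 25 in replicates 1 and 2. These genes were picked by their rank after the values were seen.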
